A study of Saccharomyces cerevisiae with 210 samples.

Results

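The genes described here are 10 regulators and transporters of elemental iron in budding yeast, chosen by name: AFT1, AFT2, TIS11, HMX1, FET3, FTR1, FET5, FTH1, SMF3 and CCC1. Each of the 10 is named by 1 probe set of the array, so all 10 were measured, among 5656 genes tested in all. The cultures belong to 6 mutants (yap1, glr1, gpx1, gpx2, grx1 and grx2) and to wild type, all diploid BY4743 in mid-exponential phase. They were grown in 1 L fermentors at 30 °C and pH 6.0. In each genotype 3 cultures received 0.19 mM CHP, read here as the peroxide cumene hydroperoxide since the labels give only the abbreviation, and 3 cultures were untreated controls. Every culture was sampled at 0 min, before the oxidant, and then 3, 6, 12 and 20 min into the experiment, which gives 210 arrays from 42 cultures. The series design places the 0 min sample before the oxidant, as taken here, while the labels of control samples word it as after. Arrays of whole cultures cannot tell fewer cells with a transcript from less of it per cell. The mutants carry lesions in genes of peroxide defence: the transcription factor Yap1, glutathione reductase (GLR1), glutathione peroxidases (GPX1 and GPX2) and dithiol glutaredoxins (GRX1 and GRX2). How the mutations were made, and how many clones of each were used, is not given in the sources used here.

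Yeast takes up iron after reducing it at the cell surface. The multicopper oxidase Fet3 then oxidizes it and the permease Ftr1, its partner, carries it across the plasma membrane. In the vacuole, the iron store of the cell, Ccc1 brings iron in, while Fet5 with Fth1 (a second oxidase and permease pair) and the divalent metal transporter Smf3 move it back out. The transcription factors Aft1 and Aft2 activate this iron regulon when iron is scarce, and they are held inactive by a signal that depends on iron-sulfur clusters and on the glutaredoxins Grx3 and Grx4. Tis11, also called Cth2, binds messenger RNAs of iron-using proteins and promotes their decay, and Hmx1 is a heme oxygenase that releases iron from heme. Hydroperoxides meet this pathway because free iron reacts with them and because iron-sulfur clusters are sensitive to oxidation.

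The mutated gene read low in its mutant in every case, with means over 30 arrays of at most 4.61 on the log2 scale in the mutants, against 5.39 to 10.28 in wild type. The smallest gap was at GPX1, at 4.13 in gpx1 and 5.39 in wild type. Array medians lay between 6.07 and 6.33. The 20 min array of grx2 CHP culture 2 stood apart, with a mean correlation of 0.863 with the other arrays of its group. The 20 min array of glr1 control culture 3 (0.944) and the 0 min array of yap1 control culture 1 (0.945) also correlated less with their groups than most. On the 0 min array of wild-type CHP culture 1 the sulfiredoxin gene SRX1 was at 10.99. The other wild-type 0 min arrays had 6.13 to 7.28, and wild-type CHP cultures had 11.10 to 12.01 at 3 min. Whether that culture met CHP before its 0 min sample was not tested. Its array enters the wild-type levels before CHP and the changes from each culture's own 0 min array. Of 16 markers of haploid cells, the mating receptors STE2 and STE3 lay at percentiles 7.7 and 4.9 of all genes by mean level, and GPA1 at 2.7. MFA2 and RME1 lay at 65.7 and 55.3. These percentiles pool all genotypes. In every gpx2 culture at 0 min, 12 or 13 of the 16 lay above the wild-type range, against 8.33% to 22.3% of all genes. Why gpx2 differs in these markers was not tested. The 5 sporulation markers lay at percentiles 0.9 to 21.4.

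Levels before CHP were compared first, as log2 expression values of 1 probe set per gene, which can be set against each other between cultures but not between genes. Outside grx2 few differences from wild type were called in the fit of all genotypes. In limma, at a threshold of 0.05 on p-values adjusted over the 5656 genes, 3 of 50 comparisons of a mutant with wild type (6 cultures each) were past the threshold. A fit without the grx2 arrays, chosen after the data were seen, called 11 of the 50, 5 higher and 6 lower. In that fit 0.407% (glr1) to 34.5% (gpx1) of all genes were called. The grx2 cultures were the exception, and 9 of the 10 genes differed from wild type there. Of all genes, 29.1% were past the threshold in grx2 and 12.2% in yap1. The share was 0.0707% for glr1, 29.0% for gpx1, 17.6% for gpx2 and 21.5% for grx1.

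Among the regulators, AFT1 was in a narrow band outside grx2, with means from 7.20 ± 0.21 in gpx2 to 7.43 ± 0.12 in grx1 (SD, n = 6), and 7.29 ± 0.14 in wild type. AFT2 was lowest in gpx2, at 5.39, 5.82 and 5.90 as the lowest, median and highest of 6 cultures, against 5.77, 6.04 and 6.37 in wild type. The gpx2 and wild-type cultures overlapped, and the difference of -0.27 (SE 0.10, adjusted p = 0.0354, limma) lost its call when any 1 of 7 of the 12 cultures was left out. Without the 0 min array of wild-type CHP culture 1 it was -0.21 with an adjusted p of 0.129. TIS11 lay between 9.11 and 10.37 in all 36 cultures outside grx2. HMX1 was lower in gpx1 (6.89 ± 0.34) than in wild type (7.37 ± 0.20), where its mean was highest. That difference of -0.48 (SE 0.19, adjusted p = 0.0412, limma) lost its call when any 1 of 8 of the 12 cultures was left out, and gpx1 cultures reached 7.40, inside the wild-type range of 7.06 to 7.55. Without the 0 min array of wild-type CHP culture 1 the HMX1 difference was -0.46 with an adjusted p of 0.067.

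Of the surface uptake pair, FET3 lay between 11.91 and 12.49 in the 36 cultures outside grx2, and the 6 genotype means differed by less than the SD of several of them. FTR1 lay between 9.39 and 10.97. Its lowest value belonged to yap1 control culture 1, whose array correlated less with its group; the other yap1 cultures had 10.52 to 10.81.

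Of the vacuolar genes, SMF3 was the one called in yap1. Its levels were 11.04, 11.23 and 11.15 in the yap1 CHP arm and 11.60, 11.08 and 11.19 in the yap1 control arm, against 10.41 to 10.80 in the 6 wild-type cultures. Every yap1 culture was above every wild-type culture, a difference of 0.56 (SE 0.17, adjusted p = 0.0183, limma). Without the 0 min array of yap1 control culture 1 it was 0.48 with an adjusted p of 0.0764, and with arrays centred on their medians 0.49 with an adjusted p of 0.064. FET5 and FTH1 had their highest means in glr1 (9.07 ± 0.19 and 9.04 ± 0.17) and their lowest in grx2 (8.59 ± 0.44 and 8.51 ± 0.47), with wild type at 9.07 ± 0.15 and 8.93 ± 0.26. CCC1 had its highest mean in grx2, 8.73 ± 0.41, and was the only member with its lowest in wild type, 8.16 ± 0.10. For most neighbours in these orders the means differed by less than their SD.

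**Figure D1:**
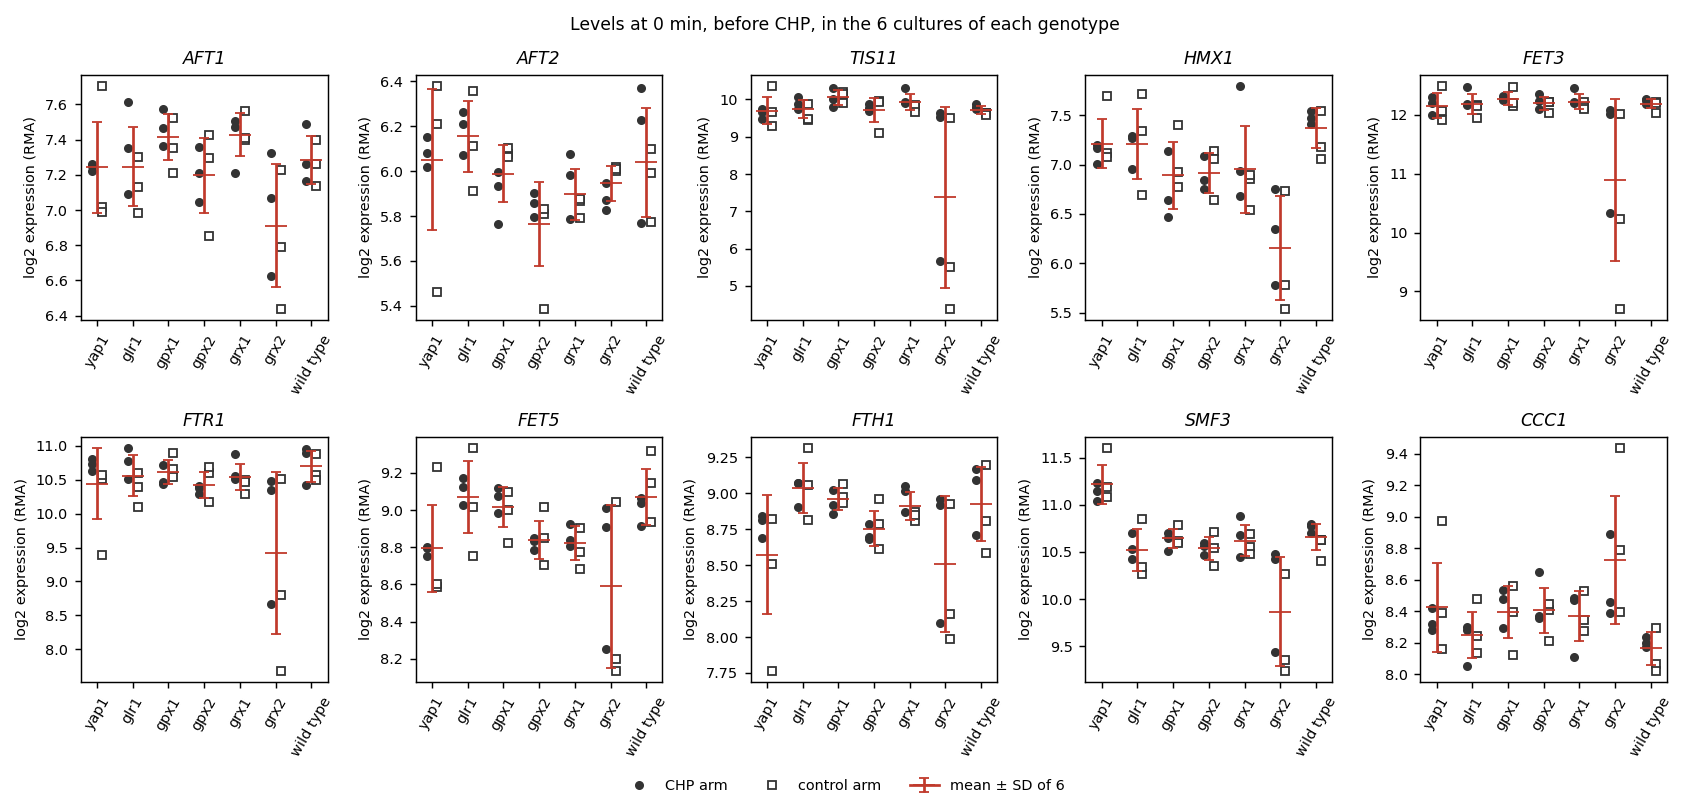
Log2 expression (RMA) of the 10 iron genes at 0 min by genotype, wild type at the right. Filled circles are CHP-arm cultures, open squares control-arm cultures, and red bars the mean ± SD of 6 cultures. TIS11, FET3 and FTR1 split into low and near-wild-type cultures in grx2 (TIS11 4.39 to 9.64), and all 6 yap1 cultures lie above wild type for SMF3.

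The grx2 cultures did not form 1 group before CHP. TIS11 was at 5.67 in CHP culture 1 and at 9.52 and 9.64 in CHP cultures 2 and 3. In the control arm of grx2 it was at 4.39 and 5.52 in cultures 1 and 2 and at 9.51 in culture 3. Wild-type cultures had 9.59 to 9.87, so 3 of the 6 grx2 cultures were near wild type and the other 3 were far below it.

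The same cultures were low for the uptake pair. FET3 was at 10.33 in CHP culture 1 and at 12.08 and 12.01 in CHP cultures 2 and 3, and at 8.71, 10.24 and 12.01 in control cultures 1 to 3. Wild type had 12.04 to 12.26. FTR1 was at 8.67, 10.48 and 10.35 in CHP cultures 1 to 3 and at 7.68, 8.81 and 10.51 in control cultures 1 to 3, against 10.42 to 10.95 in wild type. CHP culture 1 and control cultures 1 and 2 were thus low for TIS11, FET3 and FTR1 together. SMF3 followed them, with 9.44, 9.24 and 9.36 in those cultures and 10.26 to 10.48 in the other 3, against 10.41 to 10.80 in wild type.

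CCC1, the importer of iron into the vacuole, was on the other side. It was at 8.89, 8.46 and 8.39 in CHP cultures 1 to 3 and at 9.44, 8.79 and 8.40 in control cultures 1 to 3, against 8.02 to 8.29 in wild type. All 6 grx2 cultures were above the wild-type range, and the 3 cultures low for TIS11 were the highest. HMX1 was below the wild-type range of 7.06 to 7.55 in all 6 grx2 cultures, at 5.54 to 6.75. AFT2, at 5.83 to 6.02 in grx2, lay inside its wild-type range of 5.77 to 6.37 in every culture.

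Counted culture by culture, 8 of the 10 genes lay below the range of the 6 wild-type cultures in CHP culture 1, in control culture 1 and in control culture 2 of grx2, and 1 above it. The share of all genes below that range in those cultures was 22.7%, 23.7% and 26.2%. The other grx2 cultures had 3 to 4 of 10 below, with 19.0% to 20.2% of all genes. Many genes below the wild-type range were also seen outside grx2. Control culture 3 of gpx2 had 8 of 10 below (35.6% of all genes) and control culture 3 of glr1 had 7 of 10 (16.2%), although TIS11 was at 9.11 and at 9.48 there.

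In limma, which takes the 6 cultures of grx2 as 1 group, the difference from wild type was -2.34 for TIS11 (SE 0.43, adjusted p = 2.38e-05). It was -1.29 for FET3, -1.28 for FTR1, -1.21 for HMX1 and -0.79 for SMF3, with adjusted p-values of at most 0.000247. FET5 (-0.48), FTH1 (-0.42) and AFT1 (-0.37) were also lower, CCC1 was higher by 0.56 (adjusted p = 9.33e-05), and AFT2 had a difference of -0.09 with no call. The median of the 10 genes was -0.63, and that of all genes 0.01. With grx2 and wild type fitted alone, the calls of AFT1, FET5 and FTH1 were lost. The other calls held with larger adjusted p-values in limma, 0.0258 for TIS11 (SE 0.75), 0.0366 for FET3, 0.0386 for FTR1 and 0.0344 for SMF3. For HMX1 and CCC1 they were 0.00054 and 0.00658. AFT1 also lost its call without CHP culture 1 or control culture 1 of grx2, and FTH1 without either of those or without wild-type control culture 3.

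Other targets of Aft1 and Aft2, mostly at the cell surface or for siderophores, made a list of 15 genes. All 15 were lower in grx2 before CHP, with a median of -1.33. In CHP culture 1 and in control cultures 1 and 2 of grx2 all 15 lay below the wild-type range, and in the other grx2 cultures 10 to 12 did. Low counts of this kind were not limited to grx2. Control culture 3 of gpx2 and of glr1 had 13 of 15 below, CHP culture 3 of gpx2 had 10, and grx1 cultures had 1 to 9. The shares of all genes below were 35.6%, 16.2% and 25.1% in the gpx2 and glr1 cultures, in that order. They were 16.5% to 20.9% in the grx1 cultures. SIT1, a siderophore transporter, was at 6.90, 9.97 and 9.90 in grx2 CHP cultures 1 to 3 and at 5.23, 6.93 and 10.09 in control cultures 1 to 3, against 9.86 to 10.38 in wild type. ARN2, of the same family, was at 6.02, 9.87 and 9.46 in the CHP arm and at 6.09, 6.11 and 9.77 in the control arm, against 10.71 to 11.40 in wild type. The low cultures were the same ones as for TIS11. Of 21 iron-using enzymes, 13 were higher in grx2 before CHP and 1 lower, with a median of 0.46. Of all genes, 16.8% were higher and 12.3% lower in that comparison. Aconitase (ACO1) was higher by 0.85 and cytochrome c (CYC1) by 0.96. Above the wild-type range were 14 of the 21 in grx2 control culture 1 (31.2% of all genes). There were 13 in gpx1 control culture 3 (26.5%), glr1 control culture 3 (17.4%) and grx1 CHP culture 2 (21.6%). The labels give no medium, inoculum or batch that sets the low grx2 cultures apart, and whether they differ by such a factor was not tested.

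These cultures also moved without CHP. From 0 to 20 min TIS11 gained 1.80 in control culture 1 and 2.52 in control culture 2 of grx2, and 0.22 in control culture 3. FET3 gained 1.27, 1.07 and 0.12 in the same cultures. TIS11 in CHP culture 1 gained 4.60 and reached 10.27 at 20 min, beside 10.06 and 10.75 in CHP cultures 2 and 3. At that time TIS11 stood at 6.19, 8.03 and 9.73 in the grx2 controls. The low cultures thus climbed in both arms, and TIS11 climbed furthest in the one that received CHP. In the group fit, 0 of 70 control changes between 0 and 20 min, and 0 of 70 differences between the arms at 0 min, passed the threshold in limma. At an unadjusted p below 0.05 there were 3 and 5. That fit takes the 0 and 20 min arrays of a culture as independent. Relative to each culture's own 0 min array, TIS11 rose by 1.51 in the grx2 controls (adjusted p = 0.000416, limma). FET3 then rose by 0.82 (adjusted p = 1.56e-06) and FTR1 by 0.55 (adjusted p = 0.0178) in the same controls. A fit without the grx2 arrays called 1 of 60 in each comparison, FTH1 over time and FTR1 between the arms, both in yap1, and had 5 and 3 of 60 at an unadjusted p below 0.05. Of all 5656 genes, 275 were higher and 82 lower in the yap1 CHP arm at 0 min in the group fit. Over time 180 rose and 39 fell in yap1 controls, 137 and 171 in glr1, and 62 and 9 in grx2. Without the grx2 arrays 9.02% were called between the yap1 arms, and over time 6.49% in yap1 and 8.36% in glr1.

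**Figure D2:**
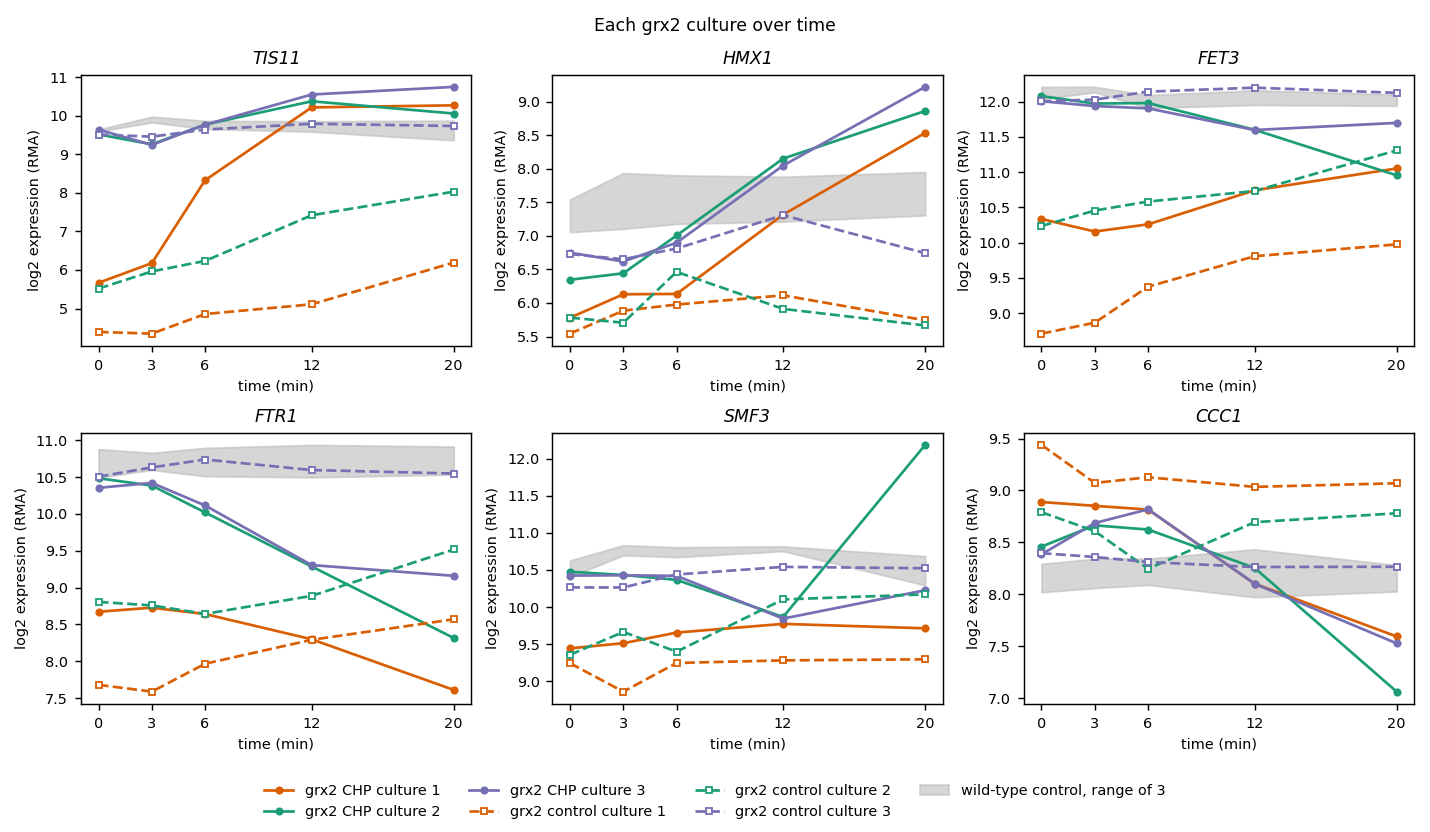
Log2 expression (RMA) of 6 iron genes over 20 min in each grx2 culture; solid lines and filled circles are CHP cultures, dashed lines and open squares control cultures, and the grey band is the range of the 3 wild-type control cultures. CHP culture 1 and control cultures 1 and 2 start low for TIS11, FET3, FTR1 and SMF3, and SMF3 reaches 12.19 in CHP culture 2 at 20 min.

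The spread of the grx2 cultures enters every test of these genes, because all groups share 1 estimate of it. The SE of a CHP minus control difference of TIS11 was 0.61, and 0.18 when the grx2 arrays were left out, an alternative chosen after the data were seen. Values outside grx2 are the same in both fits, but 11 of the 50 levels before CHP were then called in place of 3. Of the 240 responses outside grx2, 109 were called in that fit and 72 in the fit of all genotypes, so counts from both are given. Without the grx2 arrays the share of all genes called in a response ran from 0.831% (yap1 at 3 min) to 58.4% (glr1 at 20 min). Shares in the fit of all genotypes are given with each genotype below.

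In wild type the response to CHP was carried by a regulator at early times and by heme and vacuolar genes later. Of the 10 genes, 1 was higher and 0 lower at 3 min, where 0.672% of all genes were higher and 0.106% lower (0.778% in all). At 6 min the counts were 1 and 0, against 4.05% and 8.68% of all genes (12.7%). At 12 min they were 2 and 1, against 10.7% and 19.5% (30.2%), and at 20 min 5 and 1, against 16.7% and 21.9% (38.6%). At 20 min the median of the 10 was 0.52, and that of all genes -0.04. Without the grx2 arrays 4 were higher and 2 lower at 12 min, against 12.0% and 21.8% of all genes, and 6 and 3 at 20 min, where 41.8% of all genes were past the threshold in either direction. FTH1 was among those added at 12 min (0.45, adjusted p = 0.0548 with and 0.00946 without the grx2 arrays).

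AFT2 was the earliest to be called. At 6 min it had 7.15, 7.40 and 7.14 in wild-type CHP cultures, against 6.24, 6.13 and 6.34 in controls. At 12 min it had 7.36, 7.54 and 7.60 with CHP, against 6.23, 5.95 and 6.32. The arms did not overlap at either time. The response, CHP minus control, was 0.66 (SE 0.14, adjusted p = 0.00105) at 3 min, 0.99 at 6 min, 1.34 (adjusted p = 7.19e-16) at 12 min and 0.86 at 20 min in limma. Without CHP culture 2 the 3 min value was 0.57 with an adjusted p of 0.064, and relative to each culture's own 0 min array it was 0.49 with an adjusted p of 0.999.

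AFT1, the other iron-responsive activator, had a called response in wild type only at 20 min. At 3 min AFT1 had a response of -0.46 with no call (unadjusted p = 0.00559, adjusted p = 0.34, limma). At 20 min it was at 7.62, 7.55 and 7.97 in CHP cultures and at 7.23, 7.11 and 7.55 in controls, which touch. The response was 0.42 (adjusted p = 0.0345, limma), and it lost its call without CHP culture 3 (0.29), control culture 1 (0.38) or control culture 2 (0.33).

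TIS11 had 10.56, 10.38 and 10.09 in wild-type CHP cultures at 20 min, against 9.69, 9.37 and 9.87 in controls. All CHP cultures were above all controls there, as they were at 12 min. The differences of 0.56 at 12 min and 0.70 at 20 min had adjusted p-values of 0.539 and 0.396 in limma. Without the grx2 arrays these were 0.0072 and 0.000471.

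HMX1, the heme oxygenase, had the largest response of the 10 in wild type. It was at 9.14, 8.84 and 9.23 in CHP cultures at 12 min, against 7.55, 7.22 and 7.88 in controls. At 20 min it was at 10.21, 9.58 and 9.65 with CHP, against 7.36, 7.31 and 7.95. The arms were well apart at both times, with responses of 1.52 (SE 0.26, adjusted p = 6.51e-07) and 2.27 (adjusted p = 2.54e-13) in limma, and 0.24 with no call at 6 min.

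The uptake pair did not follow. FET3 had 11.96, 11.83 and 12.04 in wild-type CHP cultures at 20 min, against 12.10, 11.94 and 12.05 in controls. These overlap, and the difference was -0.09 (SE 0.36, adjusted p = 0.884, limma). FTR1 was at 9.49, 10.38 and 10.42 with CHP, against 10.60, 10.53 and 10.91 in controls, so all CHP cultures were below all controls and CHP culture 1 was the lowest. Its differences of -0.71 at 12 min and -0.59 at 20 min had adjusted p-values of 0.153 and 0.235, and of 0.00142 and 0.00809 without the grx2 arrays.

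The vacuolar genes changed in both directions. FET5 was at 9.39, 9.67 and 9.92 in CHP cultures at 20 min and at 9.07, 8.89 and 9.01 in controls. It rose by 0.67 (adjusted p = 0.00365, limma), and by 0.54 with an adjusted p of 0.0517 without CHP culture 3. FTH1, its partner, had 9.34, 9.77 and 9.88 with CHP, against 8.89, 8.77 and 9.45. These overlap at 1 culture of each arm, and FTH1 rose by 0.63 (adjusted p = 0.00406), or 0.50 with an adjusted p of 0.0579 without control culture 2.

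SMF3, the other exporter, went the opposite way. At 12 min it had 10.09, 10.08 and 10.25 in CHP cultures, against 10.82, 10.75 and 10.77 in controls. No value overlapped, and SMF3 fell by 0.64 (adjusted p = 0.0307, limma). The call was lost without any 1 of 5 of the 6 cultures, with values of -0.66 to -0.61, and with arrays centred on their medians (-0.51). At 20 min the difference was -0.44 (adjusted p = 0.148, and 0.00645 without the grx2 arrays). CCC1, the importer, was at 7.13, 7.36 and 7.37 with CHP at 20 min, against 8.28, 8.15 and 8.03 in controls. It fell by 0.87 (adjusted p = 2.06e-06) with the arms far apart, and had shown -0.16 with no call at 12 min.

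In yap1 the regulators traded places, AFT1 responding more than in wild type and AFT2 less. Of the 10 genes, 0 were called at 3 min, where 0.371% of all genes were higher and 0.124% lower (0.495% in all). At 6 min 1 was higher and 0 lower, against 6.58% and 7.58% of all genes (14.2%). At 12 min 2 were higher and 1 lower, against 13.3% and 16.0% (29.4%), and at 20 min 3 and 3, against 18.2% and 26.3% (44.5%). At 20 min the median of the 10 was 0.13, and that of all genes -0.10. Without the grx2 arrays 3 were higher and 1 lower at 6 min, against 8.17% and 9.53% of all genes. The counts were 3 and 1 at 12 min, where 32.9% of all genes were past the threshold in either direction, and 4 and 3 at 20 min, against 19.7% and 28.6%. The calls added at 6 min were TIS11, FET3 (0.29, adjusted p = 0.0429) and CCC1 (-0.37, adjusted p = 0.0392).

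AFT1 was at 7.61, 7.58 and 7.45 in yap1 CHP cultures at 6 min, against 6.34, 7.02 and 6.69 in yap1 controls. At 20 min it was at 8.44, 8.31 and 8.38 with CHP, against 7.05, 7.16 and 6.91. The arms were apart at both times, by 0.86 (adjusted p = 4.17e-05) and 1.34 (adjusted p = 3.6e-12) in limma, and by 0.94 at 12 min. Relative to the wild-type response these values were higher by 0.90 (SE 0.23, adjusted p = 0.00624) at 6 min, 0.80 (adjusted p = 0.00634) at 12 min and 0.92 (adjusted p = 0.00128) at 20 min. The difference at 6 min was 0.73 with no call without yap1 control culture 1, and 0.93 with an adjusted p of 0.0552 relative to each culture's own 0 min array.

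AFT2 had 6.65, 6.13 and 6.61 in yap1 CHP cultures at 6 min, against 6.54, 6.29 and 6.30 in controls, which overlap. At 12 min it had 6.82, 6.75 and 6.78, against 6.39, 6.08 and 6.18. The arms were then apart by 0.57 (adjusted p = 0.000467, limma). Set against wild type, its response at 6 min was lower, with a difference of -0.90 (adjusted p = 0.000473), and so was that at 12 min, with -0.77 (adjusted p = 0.00121). Relative to each culture's own 0 min array these were -0.80 and -0.67 with no call. The 20 min difference of -0.48 had an adjusted p of 0.0592, and 0.0407 without the grx2 arrays.

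TIS11 in yap1 was at 10.27, 10.50 and 10.29 with CHP at 6 min, against 9.38, 9.71 and 9.05 in controls. The difference of 0.97 had an adjusted p of 0.293 in limma, and 9.97e-06 without the grx2 arrays. In wild type the arms overlapped at 6 min. The difference between the responses was 1.04, with adjusted p-values of 0.469 in the fit of all genotypes and 0.00203 without the grx2 arrays.

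HMX1 had 8.02, 7.97 and 8.04 in yap1 CHP cultures at 20 min, against 7.16, 7.25 and 7.32 in controls. It rose by 0.77 (adjusted p = 0.0119, limma), and the arms were apart. This was 1.51 less than in wild type (a difference of -1.51, SE 0.37, adjusted p = 0.000905). The 12 min difference of -0.98 (adjusted p = 0.044) lost its call under 12 of 26 alternatives, 9 of which left out 1 culture.

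FET3 had no call in yap1, with -0.07 at 20 min and a difference from the wild-type response of 0.01 (95% interval -0.99 to 1.02). FTR1 was at 9.42, 9.03 and 9.40 in yap1 CHP cultures at 20 min, against 10.74, 10.55 and 10.41 in controls. It fell by 1.28 (adjusted p = 0.00322, limma) with a wide gap between the arms. The difference from wild type, -0.70, had an adjusted p of 0.384, and 0.0419 without the grx2 arrays.

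FET5 moved the other way from wild type. It had 8.29, 8.31 and 8.24 in yap1 CHP cultures at 20 min, against 8.91, 8.87 and 8.53 in controls. The response of -0.49 (adjusted p = 0.0349, limma) lost its call without any 1 of 5 of the 6 yap1 cultures. The difference from the wild-type response was -1.16 (SE 0.28, adjusted p = 0.000675) and held its call under all 26 alternatives run, from -1.30 to -1.03. FTH1 had 9.31, 9.03 and 9.10 with CHP, against 8.82, 8.86 and 8.77. These do not overlap, but the difference of 0.33 had an adjusted p of 0.145.

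SMF3 stayed between 10.87 and 11.10 in yap1 CHP cultures at 20 min, against 10.98 to 11.20 in controls. The difference was -0.08 with no call, from a starting level that was higher than in wild type. Its response minus that of wild type was 0.57 at 6 min and 0.69 at 12 min, with adjusted p-values of 0.287 and 0.144, and of 0.04 and 0.00419 without the grx2 arrays. CCC1 had a called fall at 12 min in yap1. It had then 7.48, 7.53 and 7.66 in yap1 CHP cultures, against 8.35, 8.15 and 8.61 in controls, a fall of 0.81 (adjusted p = 1.57e-05, limma). The difference from the wild-type response at 12 min was -0.66 (adjusted p = 0.0237), and it lost its call without any 1 of 5 of the 12 cultures. Relative to each culture's own 0 min array it was -0.41 with an adjusted p of 0.204. At 20 min it was 0.18 with no call (95% interval -0.26 to 0.63).

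Over all times 9 of 40 differences of response passed the threshold, 3 of them positive (AFT1) and 6 negative. They fell at 6, 12 and 20 min with 2, 4 and 3 calls of 10, where 8.29%, 22.5% and 23.2% of all genes were past the threshold, and 0 at 3 min (0.354%). Without the grx2 arrays there were 14 of 40. The shares of all genes were higher in that fit too, at 0.513%, 12.8%, 25.9% and 26.5% at 3, 6, 12 and 20 min.

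**Figure D3:**
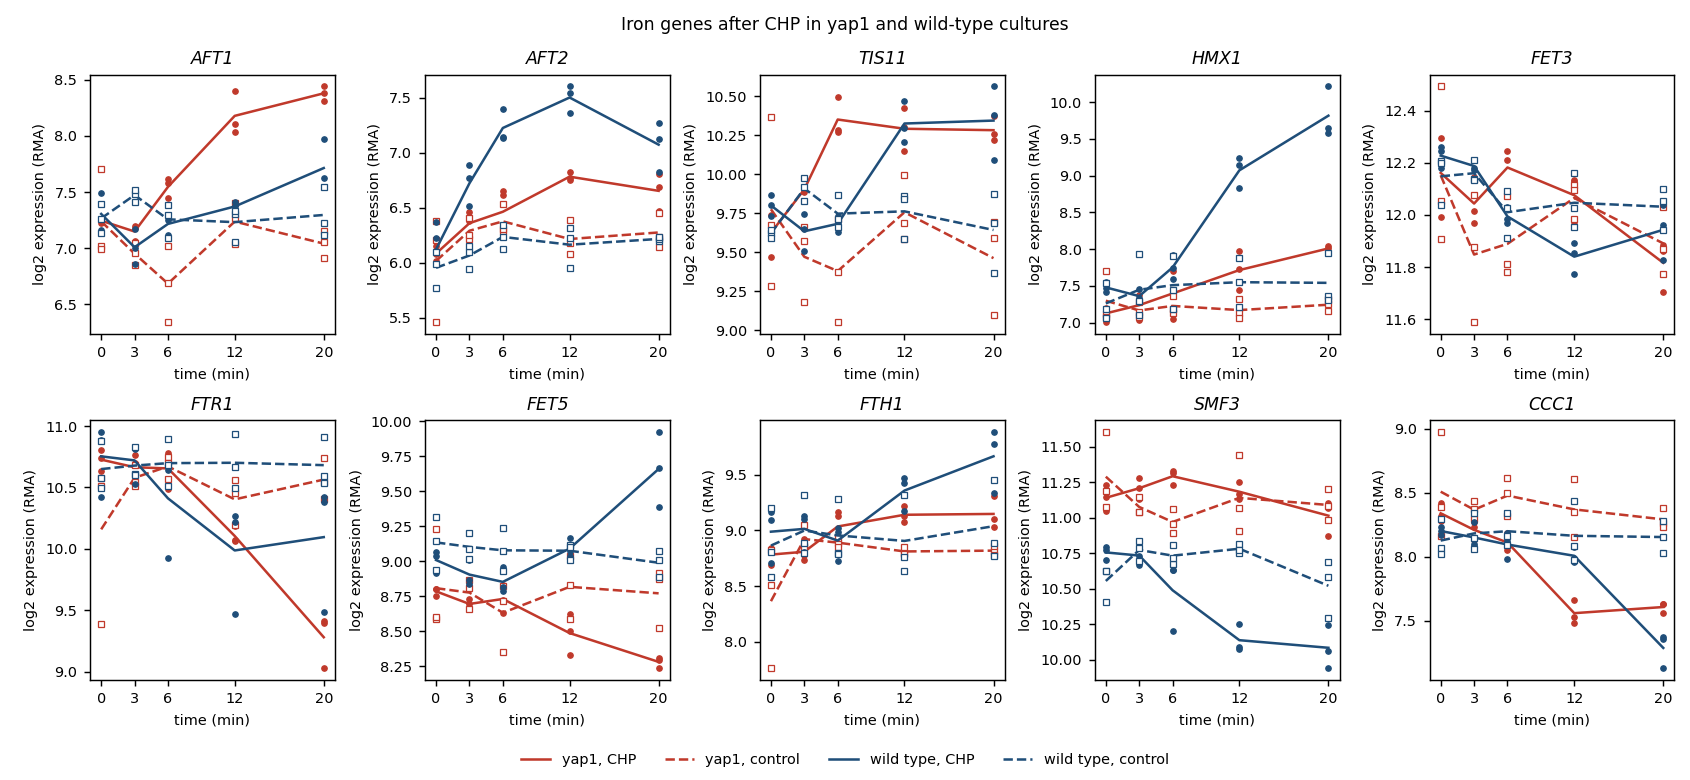
Log2 expression (RMA) of the 10 iron genes over time in yap1 (red) and wild type (blue); lines are means of 3 cultures, solid with filled circles for CHP and dashed with open squares for control. AFT1 reaches 8.31 to 8.44 in yap1 with CHP, against 7.55 to 7.97 in wild type, while HMX1 and AFT2 reach lower levels in yap1.

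**Figure D4:**
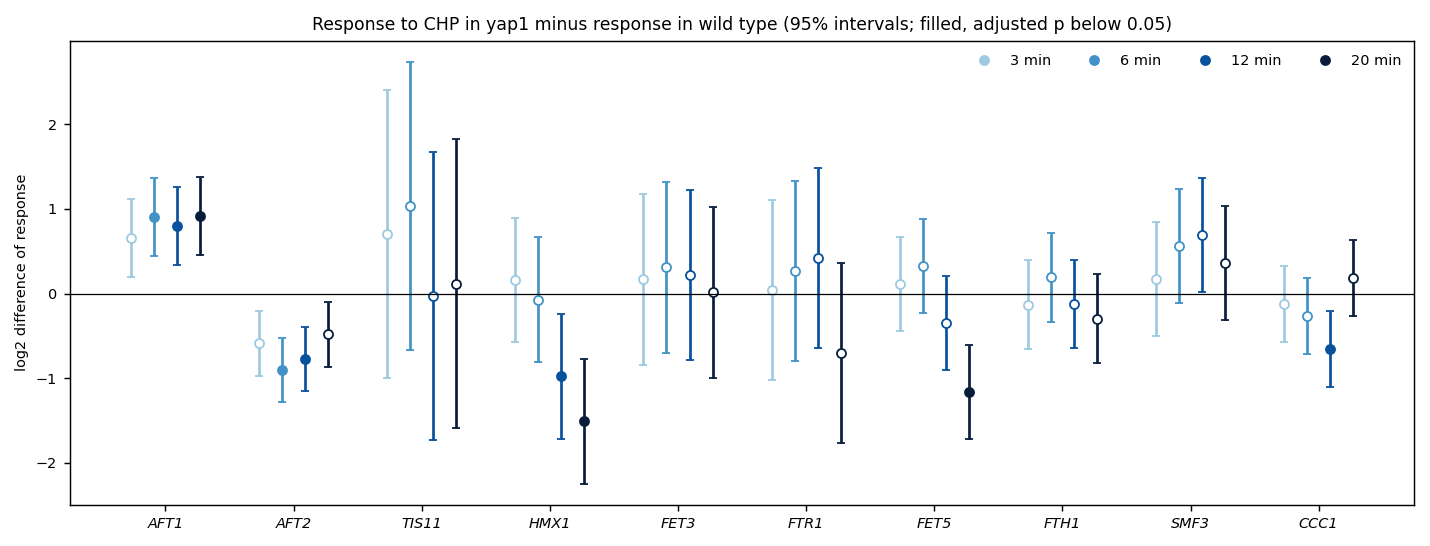
Difference on the log2 scale between the CHP response in yap1 and that in wild type, by gene and time, with 95% intervals from the fit of all genotypes; filled symbols have an adjusted p below 0.05. AFT1 lies above 0 and AFT2, HMX1 and FET5 below it at the filled times, and the intervals of TIS11, FET3 and FTR1 are wide.

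The responses in glr1, gpx1, gpx2 and grx1 had the same outline as in wild type. By 20 min glr1 had 5 called higher with 2 called lower, against 29.3% and 26.7% of all genes (55.9% in all). Of the 5, FET5 lost its call without the 20 min array of glr1 control culture 3 (0.25, adjusted p = 0.325, limma). AFT1 (0.37, adjusted p = 0.0473) lost its call with quantile normalization (adjusted p = 0.216) and without some single cultures. Relative to each culture's own 0 min array AFT1 was 0.16 with an adjusted p of 0.548. Of the 2 lower, SMF3 (-0.59, adjusted p = 0.031) lost its call without CHP culture 1 or 2, or control culture 1 or 2, of glr1. For gpx1 the counts were 4 and 3, against 22.8% and 26.3% (49.1%), 4 and 3 in gpx2, against 24.0% and 24.1% (48.1%), and 5 and 2 in grx1, against 22.7% and 26.0% (48.7%). At 12 min each of them had 2 higher and 2 lower. Of all genes, 19.0% were then higher with 21.1% lower for glr1 (40.0%). The shares were 13.8% and 17.0% for gpx1 (30.8%), 14.3% and 17.9% for gpx2 (32.1%), and 12.2% and 18.7% for grx1 (30.9%). At 6 min each had 1 higher and 0 lower, against 10.8% and 12.7% of all genes for glr1 (23.4%), 4.42% and 2.37% for gpx1 (6.79%), 3.77% and 1.91% for gpx2 (5.68%), and 4.12% and 2.19% for grx1 (6.31%). At 3 min glr1, gpx2 and grx1 had 1 higher, against 1.11%, 1.08% and 0.99% of all genes (1.31%, 1.2% and 1.1% in either direction), and gpx1 had 0 (1.2%). The call at 3 min was AFT2 in each case, and relative to each culture's own 0 min array it was lost in glr1, gpx2 and grx1. In glr1 it was also lost without CHP culture 3 (0.46) or control culture 1 (0.48), and in gpx2 without CHP culture 3 (0.49) or control culture 3 (0.47).

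More of the 10 genes were called in these mutants when the grx2 arrays were left out. At 12 min 2 were higher and 4 lower in glr1, against 20.1% and 22.8% of all genes. The counts were 4 and 3 for gpx1, against 15.3% and 18.9%, 4 and 3 for gpx2, against 15.4% and 19.7%, and 4 and 4 for grx1, against 13.7% and 21.0%. At 20 min each mutant had 6 higher and 4 lower, with 24.1% to 30.5% of all genes higher and 25.5% to 27.9% lower. TIS11 was among the genes added at 20 min, with responses of 1.26 in glr1, 0.79 in gpx1, 0.88 in gpx2 and 0.98 in grx1. Its adjusted p-values were 0.0696 to 0.295 in the fit of all genotypes and at most 4.97e-05 without the grx2 arrays.

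AFT2 was called at 6, 12 and 20 min in each of these mutants. At 12 min its response was 1.52 in glr1, 1.43 in gpx1, 1.49 in gpx2 and 1.51 in grx1. HMX1 at 20 min had 10.26, 10.29 and 10.35 in glr1 CHP cultures, against 7.54, 7.82 and 6.87 in controls. In grx1 it had 10.03, 9.93 and 9.95, against 7.07, 6.93 and 6.77. These arms were far apart, with responses of 2.89 and 3.05. The grx1 value was the largest of the 280 responses of the 10 genes.

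CCC1 was lower at 20 min in all of them, by -0.65 in glr1, -1.16 in gpx1, -1.14 in gpx2 and -1.10 in grx1. FTH1 was higher by 0.72, 0.59, 0.81 and 0.79 in the same order. SMF3 was lower at 12 min in each, from -1.09 in glr1 to -0.71 in grx1. As in wild type, FTH1 was thus up at 20 min and SMF3 down at 12 min. At 20 min SMF3 had no call in grx1 (-0.35) or in wild type (-0.44). FET5 was called higher at 20 min in glr1 (0.60), gpx1 (0.48) and grx1 (0.50), and had 0.41 with no call in gpx2. Each of these FET5 calls was lost when some single cultures were left out.

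FTR1 in glr1 had the largest fall among the 280 responses of the 10 genes. At 12 min it had 8.55, 8.71 and 8.98 in glr1 CHP cultures, against 10.89, 10.58 and 10.25 in controls. The arms were 1.83 apart (a response of -1.83, adjusted p = 2.52e-05, limma). At 20 min it was at 9.82, 9.55 and 9.51 with CHP, against 10.54, 10.38 and 10.19. All CHP cultures were still below all controls, with a response of -0.75 (adjusted p = 0.0843, limma). Without the grx2 arrays that response was called lower. The difference from the wild-type response at 12 min was -1.11 (95% interval -2.18 to -0.05), with adjusted p-values of 0.378 in the fit of all genotypes and 0.00973 without the grx2 arrays.

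FET3 was lower with CHP at 12 min in these mutants in the fit without grx2 arrays only. At that time it had 11.35, 11.23 and 11.65 in glr1 CHP cultures, against 12.02, 12.06 and 12.10 in controls. The arms did not overlap. FET3 was not called in any genotype in the fit of all genotypes, with differences at 12 min of -0.65 in glr1, -0.46 in gpx1, -0.45 in gpx2 and -0.29 in grx1. Without the grx2 arrays these had adjusted p-values of 1.09e-07, 0.000198, 0.000324 and 0.0268. In wild type FET3 lay between 11.77 and 11.89 with CHP at 12 min, against 11.95 to 12.16 in controls. That response of -0.21 was called in neither fit, and no difference between these mutants and wild type was called for FET3.

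The tests of a mutant's response against that of wild type gave 0 calls of 160 in limma for these mutants, and 6 at an unadjusted p below 0.05. In that family the share of all genes past the threshold was at most 5.07%, in glr1 at 20 min. Without the grx2 arrays there was 1 call, FTR1 in glr1 at 12 min. The intervals leave room for differences. For HMX1 at 20 min they ran from -0.12 to 1.35 in glr1 and from 0.04 to 1.51 in grx1, and for AFT2 at 20 min from 0.14 to 0.90 in gpx2. All mutants were set against the same 6 wild-type cultures.

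**Figure D5:**
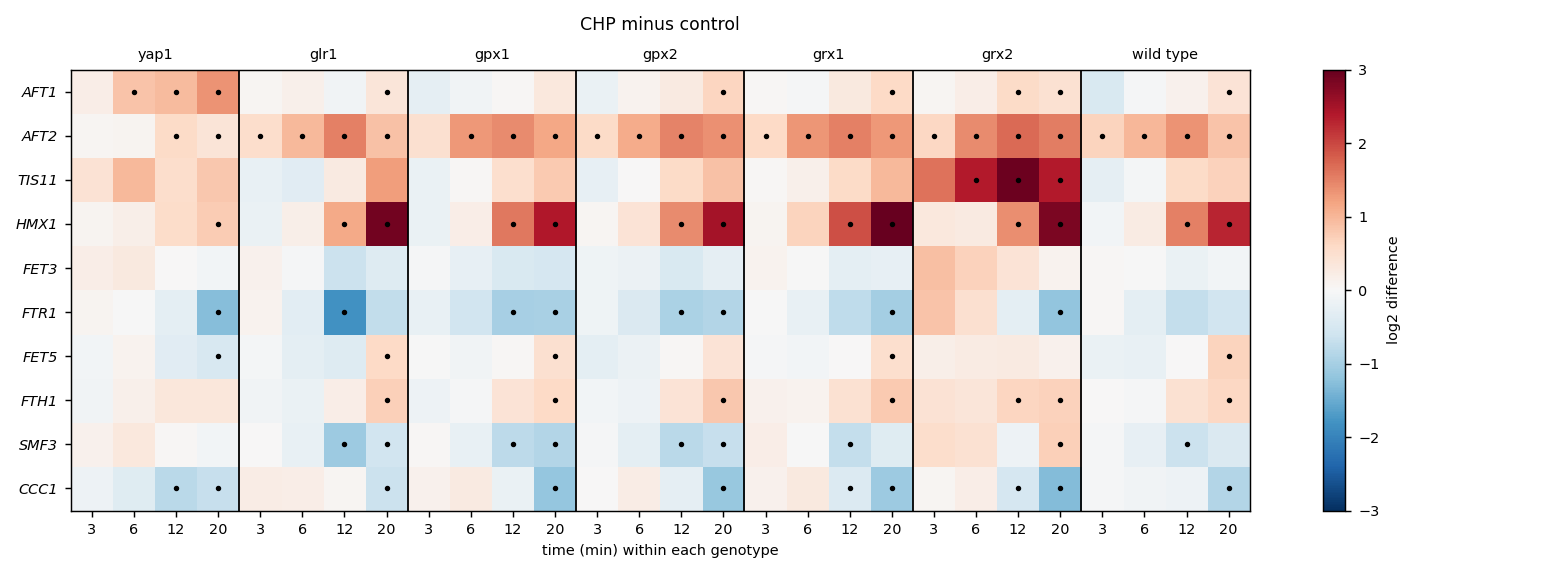
CHP minus control on the log2 scale for each iron gene (rows), genotype and time (columns, wild type at the right), red for higher and blue for lower with CHP, colours limited to 3 in either direction. Dots mark an adjusted p below 0.05 in the fit of all genotypes. AFT2 is weak in yap1, HMX1 is highest in grx1 at 3.05, and TIS11 is marked only in grx2, where it differs between cultures before CHP.

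In grx2 a CHP minus control difference compares arms that differed at 0 min, since 1 CHP culture and 2 control cultures were low. Counts were 1 higher at 3 min, against 1.33% of all genes (1.49% in either direction), and 2 higher at 6 min, against 6.15% (10.9%). At 12 min 5 were higher and 1 lower, against 16.7% and 23.9% of all genes (40.5%), and at 20 min 6 and 2, against 26.1% and 39.3% (65.4%). TIS11 had 10.27, 10.06 and 10.75 in CHP cultures at 20 min, against 6.19, 8.03 and 9.73 in controls, a difference of 2.37 (adjusted p = 0.000344, limma). Taken from each culture's own 0 min array the difference was 0.57 with an adjusted p of 0.252. FET3 at 20 min was 0.10 with no call in the fit of levels, and relative to each culture's own 0 min array it was -1.06 (adjusted p = 1.66e-07). At 12 min the values were 0.40 and -0.76. FTR1 was lower in both, at -1.18 and -2.02.

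HMX1 at 20 min had 8.54, 8.86 and 9.22 in grx2 CHP cultures, against 5.74, 5.67 and 6.74 in controls. All CHP cultures were above all controls, by 2.82 (adjusted p = 4.28e-19, limma), and by 2.55 from the own 0 min arrays. AFT2 was higher by 1.53 and by 1.66 on the same measures. CCC1 was lower at 20 min on both, at -1.31 and -1.01, but not at the earlier times. At 12 min its values were -0.51 (called) and -0.21 (no call), and at 6 min 0.19 (no call) and 0.49 (called).

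Against wild type 2 of 40 differences of response were called in grx2, both higher at 20 min (9.78% of all genes were higher and 18.2% lower) and 0 at 3, 6 and 12 min (0.0%, 0.141% and 0.265%). AFT2 responded more, by 0.67 (SE 0.19, adjusted p = 0.00528), and by 0.41 with no call without CHP culture 1. SMF3 differed by 1.15 (adjusted p = 0.00669), and by 0.41 without the 20 min array of CHP culture 2 and 0.80 without control culture 1, neither called. SMF3 was at 9.71, 12.19 and 10.23 in grx2 CHP cultures at 20 min, against 9.29, 10.17 and 10.52 in controls. Only the value from the array that stood apart was outside the control range at its upper end. Without that array the response was -0.03 (adjusted p = 0.931), against 0.71 with it, and without control culture 1 it was 0.36 with no call. Relative to each culture's own 0 min array, 5 differences from wild type were called at 20 min. AFT2 (0.97) and SMF3 (0.86) were higher, and FET3 (-0.89), FTR1 (-1.33) and FET5 (-0.94) lower.

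The change of the response between 6 and 20 min was called in 19 of 70 comparisons. The change of HMX1 was 0.60 with no call in yap1, while it rose further in the other 5 mutants and in wild type (2.03, adjusted p = 7.99e-06, limma). CCC1 had -0.32 and no call in yap1, and fell further in the other 6 genotypes, with values between -1.50 in grx2 and -0.76 in wild type. FET5 gained 0.88 in glr1 and 0.90 in wild type. Its glr1 response at 20 min was 0.60, and 0.25 with no call without the 20 min array of glr1 control culture 3. AFT2 had no call in this comparison in any genotype. The 10 genes had 0 calls in yap1, where 23.0% of all genes were past the threshold. There were 4 for glr1 (37.3%), 2 for gpx1 (25.8%), 3 for gpx2 (27.4%), 4 for grx1 (27.3%), 3 for grx2 (46.4%) and 3 for wild type (20.6%). Whether yap1 differs from wild type in this change was not tested.

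For each member the genes with the most similar responses were found by Pearson's r over the 28 combinations of genotype and time, which share control and wild-type cultures, and are given as a description. AFT2 was most like CIS1 (0.96), MRX16 and RCR2 (both 0.95), and HMX1 most like YET3, GSC2 and GPG1 (0.96, 0.96 and 0.95). CCC1 was most like CYT1, the cytochrome c1 gene (0.94). Its list was completed by SWI1 and HSL7, at 0.93 and 0.92. FET3 was most like SIT1 (0.91), followed by SMF3 (0.85) and FTR1 (0.82). TIS11 was most like ENB1, an enterobactin transporter (0.87), then MST27 and AKR1. FTR1 was most like CDC9, SIT1 and ZRT3, at 0.88, 0.88 and 0.87. FTH1 was most like PGC1 (0.92), then PCA1 and GSC2. FET5 was most like MRPL3 (0.92), then FMP52 and SED4. AFT1 was most like YDL012C, FOL2 and CAF120 (0.88, 0.88 and 0.86), and SMF3 most like FET3 (0.85), then URB2 and BET3. The values of FET3, FTR1, SMF3 and TIS11 rest in part on grx2.

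Other genes of the iron pathway were followed on lists chosen with earlier results of these data known. The list counts below stand against 18.2% of all genes higher and 26.3% lower in yap1, and 16.7% higher and 21.9% lower in wild type, at 20 min. At 20 min in yap1 1 of 6 iron-sensing genes was higher and 1 lower, and 0 and 2 in wild type. The decay factor CTH1 rose by 1.22 in yap1. BOL2 fell by 0.64 in yap1 and by 0.46 in wild type, and GRX4 fell by 0.87 in wild type. The medians were 0.28 in yap1 and -0.05 in wild type.

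Of the 15 other Aft1 and Aft2 targets, 2 rose and 0 fell in yap1, and 2 rose and 1 fell in wild type, with medians of 0.08 and 0.16. The surface reductase FRE4 rose by 4.84 in yap1, and the transporter ENB1 by 1.19. In wild type FRE1 rose by 1.80 and FRE6 by 0.69, and FRE2 fell by 1.20. The list did not move as 1 block in either genotype. Of 7 copper genes, 1 rose and 2 fell in yap1, and 1 rose in wild type. It was MAC1, the copper-sensing activator, in both (0.91 in yap1 and 0.28 in wild type), and in yap1 FRE7 fell by 0.48 and CTR2 by 0.37. Medians were -0.37 and 0.12.

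Among 7 other metal transporters, 3 rose and 1 fell in yap1, and 3 rose and 2 fell in wild type. The low-affinity iron transporter FET4 rose by 1.55 in yap1 and fell by 1.47 in wild type, and the mitochondrial carrier MRS4 rose by 0.68 in yap1 and by 1.24 in wild type. In yap1 SMF2 fell by 0.65, and in wild type MMT2 rose by 0.76. Medians were 0.17 and 0.03.

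Iron-sulfur cluster assembly genes had 6 of 15 higher and 1 lower in yap1, and 7 higher and 2 lower in wild type, with medians of 0.20 and 0.41. In yap1 the scaffold genes ISU1 and ISU2 rose by 1.81 and 0.99, and NBP35, of the cytosolic pathway, by 0.79. In wild type ISU2 rose by 1.57, while the ferredoxin gene YAH1 fell by 1.72 and ISA1 by 1.33. YAH1 rose by 0.52 in yap1.

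Of 21 iron-using enzymes, 4 were higher and 9 lower in yap1, and 2 were higher and 11 lower in wild type, with medians of -0.19 and -0.59. More of all genes were likewise lower than higher, and the share higher in yap1 was close to that of all genes. In yap1 ACO1 fell by 3.41, catalase T (CTT1) rose by 3.21 and the desaturase OLE1 by 2.30. In wild type homoaconitase (LYS4) fell by 3.02 and ACO1 by 2.29, and catalase A (CTA1) rose by 2.98. The medians of all genes were -0.10 in yap1 and -0.04 in wild type.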

How the data were processed

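RNA from 42 yeast cultures was hybridized to Affymetrix Yeast Genome S98 arrays, 5 samples per culture. The deposited table holds log2 expression values that the authors made with RMA, per the submitters' processing notes. The version and options of RMA are not stated there, nor is it known if the 210 arrays were normalized as 1 set. Of 9335 probe sets, 60 are controls, 6504 name 1 gene, 328 several and 2443 none in the array's gene table. The probe set with the highest mean was kept per gene, which left 5656 genes. No coordinates are printed because no build is named, and sequences are not used here. Array values have no read depth, and 3 cultures per group limit the precision.

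Groups came from the labels, whose replicates are separate cultures. Differences were fitted with limma 3.58.1 in R 4.3.3 as 70 group means with default moderation of variances (140 residual degrees of freedom). P-values were adjusted by Benjamini-Hochberg over all genes, with a threshold of 0.05. This fit takes the 5 samples of a culture as independent (correlation within a culture 0.264). The script was tested on simulated data. Culture numbers were checked for pairing across arms: 9 of 21 same-numbered pairs had a correlation over 0.1 (-0.17 to 0.36), so they were not treated as pairs. Alternatives were other normalizations, blocks, filters, a fit of the genotypes compared alone, changes from each culture's 0 min array, and leaving out cultures or arrays. The text names all 10 members, 3 most similar genes of each, and up to 3 genes with the largest called response at 20 min per pathway list. The members and lists were chosen with earlier results of these data known.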

Additional observations from a re-analysis of the deposited data

Results flagged for a closer look

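Among 70 groups of 6 cultures at 0 min (10 genes in 7 genotypes), 11 held a culture whose distance to the nearest other was unusually large for the range of its group by Dixon's criterion. Chance alone marks about 1 group in 20. Of the 11, 6 belong to control culture 1 of yap1, whose array also correlated less with its group: HMX1 at 7.70, FTR1 at 9.39, FET5 at 9.23, FTH1 at 7.77, SMF3 at 11.60 and CCC1 at 8.97. In that culture FTR1 and FTH1 were below the other yap1 cultures and the other 4 genes above them. Control culture 3 of gpx2 stood below its group for AFT2 (5.39) and TIS11 (9.11). CHP culture 1 of grx1 stood above its group for HMX1 (7.80) and FET3 (12.46), and control culture 1 of wild type below its group for FET3 (12.04). The grx2 cultures were not marked this way, because 3 of them were low together.

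Of 240 differences between a mutant's response and that of wild type, 11 passed the threshold in limma. In yap1 AFT1 responded more, by 0.90 at 6 min, 0.80 at 12 min and 0.92 at 20 min. AFT2 responded less, by -0.90 at 6 min and -0.77 at 12 min, and so did HMX1, by -0.98 at 12 min and -1.51 at 20 min. FET5 differed by -1.16 at 20 min and CCC1 by -0.66 at 12 min. In grx2 AFT2 differed by 0.67 and SMF3 by 1.15 at 20 min, the SMF3 value resting on the array of CHP culture 2.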

How the results depend on the processing

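Leaving out the grx2 arrays, chosen after seeing the data, gave 17 called responses in wild type (11 with them), 20 in gpx1 (12) and 20 in grx1 (13). It gave 14 differences of response in yap1 (9) and 1 in glr1 (0), and levels before CHP called for 4 genes in yap1 (1), 1 in grx1 (0) and 3 each in gpx1 and gpx2 (1 each). Of the 60 comparisons outside grx2, the arms at 0 min had 1 call (0), the change from 6 to 20 min 32 (16 of the same 60) and the controls over time 1 (0). With only the genotypes compared in the fit, responses called were 6 in grx2 (17), 22 in grx1, 20 in gpx2 (13) and 20 in gpx1. Differences were 1 in grx2 (2), levels before CHP 3 in gpx1, 4 in gpx2 and 3 in grx1, and changes from 6 to 20 min 33.

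With the replicate block, whose numbers do not pair the cultures (8 of 21 CHP cultures correlate best with their own number), responses in yap1 numbered 16 (10). Differences numbered 1 in glr1 and 7 in grx2, levels before CHP 4 in yap1, 2 in gpx1, 3 in gpx2 and 2 in grx1, arms at 0 min 3, changes from 6 to 20 min 30 and controls over time 3. With culture as a random block the levels called were 2 in yap1 and 1 in grx1, the changes from 6 to 20 min 30 and controls over time 3. Relative to each culture's 0 min array, differences numbered 2 in glr1 and 5 in grx2, and controls over time 4. FET3 in grx2 then reversed, to -0.76 at 12 min (0.40) and -1.06 at 20 min (0.10), and its difference from wild type at 20 min to -0.89 (0.19). Quantile normalization gave 2 levels called in yap1 and 0 in gpx2. The cause of these changes was not tested.

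Without the 20 min array of grx2 CHP culture 2 there was 1 difference in grx2 and 2 levels in yap1, and SMF3 in grx2 at 20 min was -0.027 (0.71). The 0 min array of wild-type CHP culture 1 had high SRX1. Without it the levels called were 2 in yap1, 0 in gpx1 and 0 in gpx2. Without the 0 min array of yap1 control culture 1, chosen after seeing the data, 0 were called in yap1.

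With 1 culture left out at a time, response calls in grx2 ran from 13 to 29, the highest without control culture 3, and differences in grx2 from 1 to 11. SMF3 in grx2 at 20 min ran from -0.027 (without CHP culture 2) to 1.21 (without CHP culture 1). Levels called ran from 0 to 3 in yap1 and from 0 to 1 in gpx1, gpx2 and grx1, arms at 0 min from 0 to 3 and controls over time from 0 to 2.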
